A study of Mus musculus with 8 samples.

Results

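Transcripts of 10 amino acid transporters of the plasma membrane were compared between Prmt5 knockout (iPKO) and control (iPHet) mouse embryonic stem cells. The 10 genes were taken by name (Slc3a2, Slc7a1, Slc7a3, Slc7a6, Slc7a11, Slc1a4, Slc1a5, Slc38a1, Slc38a2 and Slc6a9) from 38991 gene identifiers, and each had a row in every file. The study sequenced 4 iPHet and 4 iPKO libraries of male C57BL/6 cells. The lines came from embryonic day 3.5 blastocysts, derived on feeder fibroblasts with LIF and the MEK inhibitor PD0325901 (0.5 µM), and were held in 2i, a medium that holds the cells in a ground state by blocking differentiation signals. The 2 lines the labels name, PC1 for iPHet and PC4 for iPKO, are described as those of most experiments, so genotype and line cannot be told apart. Both genotypes were exposed to 4-hydroxytamoxifen at 2 µM over 48 hours and then given fresh medium, so the control carried the agent as well. In iPKO this exposure is what deletes Prmt5. The alleles behind the name iPHet, the recombinase and its driver are not spelled out in the labels. Nothing in the labels ties the libraries to separate cultures. The p-values therefore weigh a difference only against the spread among these libraries, which may be technical.

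Amino acid transporters of the SLC families carry amino acids across the cell membrane, and their substrates overlap. Slc3a2 encodes the heavy chain CD98hc, which has to pair with a light chain of the SLC7 family to bring it to the membrane. Others work alone, among them the cationic amino acid carriers Slc7a1 and Slc7a3. The SLC1 pair exchange one amino acid for another, and the SLC38 and SLC6 members couple uptake to sodium. Several transporter genes are known targets of ATF4, a transcription factor whose translation rises when amino acids run short and which also drives genes of serine, glycine and proline synthesis.

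Expression was given as FPKM, fragments scaled to transcript length and library size, so levels can be set side by side between genes. Library sums lay between 411827 and 458856 FPKM, and between 11640 and 12099 genes reached 1 FPKM. With no counts in the files the depth of sequencing is unknown, and the small number of libraries limits the precision. Libraries 1 and 3 of each genotype were much alike, and so were libraries 2 and 4. Over 8128 protein-coding genes the SD of the log2 difference was 0.123 to 0.135 within these pairs and 0.354 to 0.382 between the other libraries of a genotype. The variance within pairs was 1.56 to 2.12 times that of the authors' confidence bounds, against 14.1 to 20.8 times between the others. The calibration of those bounds is unknown, and for 16.9% of the genes tested the FPKM lay outside its own bounds in all 8 libraries, so it is not settled whether paired libraries are separate samples, and results are given below for all 8 libraries, for pair averages, and for the odd-numbered (1 and 3) and even-numbered (2 and 4) libraries apart. Prmt5 itself was 11.8, 14.5, 12.4 and 15.0 FPKM in iPKO libraries 1 to 4 against 52.8, 70.8, 54.3 and 72.2 in iPHet, a fall of 2.13 on the log2 scale (limma adjusted p = 0.000171), and every iPKO library was below every iPHet library. Exons outside the deleted part can still give reads to this gene-level value.

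Stem cell markers were abundant in both genotypes. The 7 embryonic stem cell genes summed to 1220 to 1482 FPKM in iPHet and 1203 to 1318 FPKM in iPKO. Sox2 alone was called, lower in iPKO (limma adjusted p = 0.00539, and 3 called lower with the replicate number as a block). The Sox2 call was lost with pair averages (limma adjusted p = 0.536), with the odd/even term added (0.291) and with an estimated correlation within pairs (0.123). Over all genes tested, limma called 9.53% lower and 6.3% higher, and 16.6% lower with the block. Of 10 feeder fibroblast genes 0 of 3 tested were called (1 higher with the block), and the summed level was 222 to 251 FPKM in iPHet and 148 to 245 FPKM in iPKO. Nearly all of that was Fn1, while Postn, Lum and S100a4 were listed at 0 in every library. Primitive endoderm genes, 7 in number with 1 tested, summed to 5.11 to 5.78 and 3.63 to 5.92 FPKM, and trophoblast genes, 7 with 3 tested, to 30.8 to 118 and 36.2 to 133 FPKM. In both lists 0 were called, or 1 trophoblast gene, higher, with the block. Of 6 neuroectoderm genes 5 were tested, and Olig2, Ncam1, Nes and Map2 were called lower in iPKO, with a summed level of 30.4 to 37.3 FPKM in iPHet against 21.2 to 23.0 FPKM in iPKO. With the block 3 were lower and 1 higher, and without iPHet library 2 only 1 was called. With pair averages, with or without the odd/even term, and with an estimated correlation within pairs, limma called 0, with 4 lower at an unadjusted p under 0.05. Their part in the transporter results was not tested. In whole cultures, fewer cells of a type and less RNA per cell cannot be told apart.

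Most of the transporters were lower in the knockout, and 0 were called higher. Of the 9 that reached a mean of 1 FPKM in a genotype and were tested, 6 fell in iPKO: Slc7a1, Slc1a4, Slc1a5, Slc38a2, Slc3a2 and Slc38a1. Slc7a3, Slc7a6 and Slc6a9 were not called, and Slc7a11 lay under the filter. A call was a limma Benjamini-Hochberg adjusted p under 0.05 over 12462 genes, of which 15.8% were called, 9.53% lower and 6.3% higher. The median change of the 9 transporters on the log2(FPKM + 1) scale was -0.61, against -0.04 over all genes tested. In 7 of the 10, Slc7a11 included, every iPKO library was below every iPHet library, which was so for 15% of all genes tested. The plot of levels by library shows all 10 genes on a common scale.

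**Figure D1:**
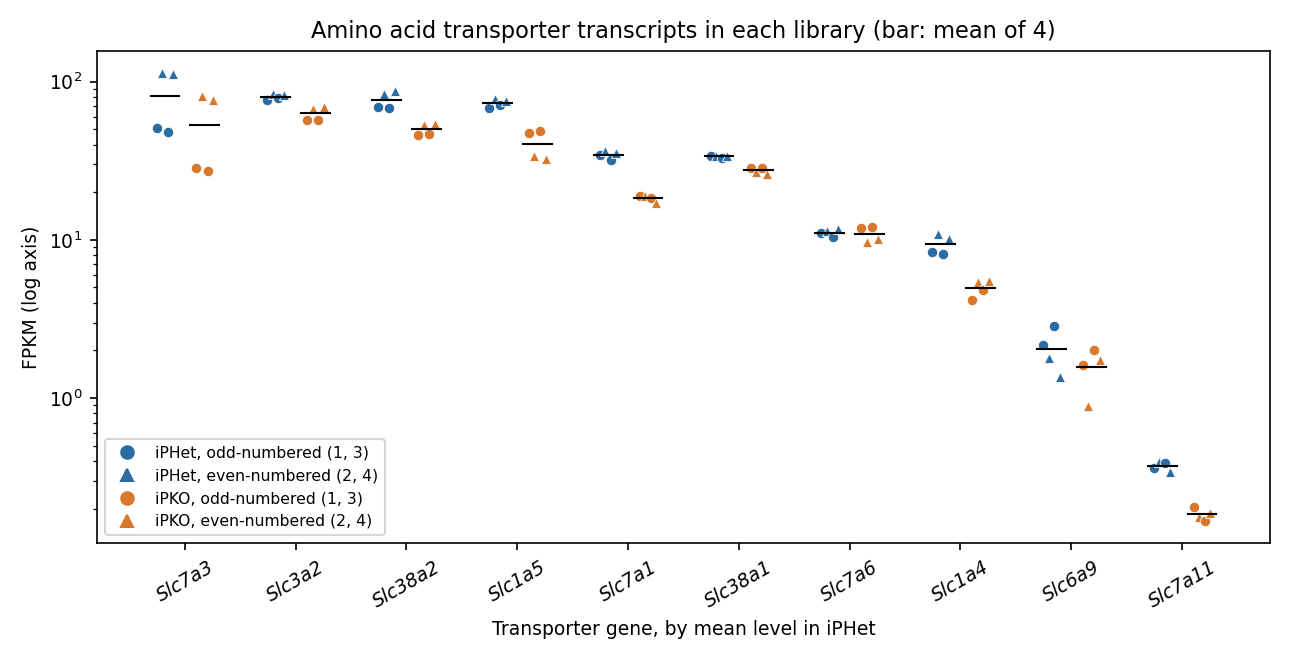
Expression of the 10 transporters in each of the 8 libraries, in FPKM on a log axis, with genes ordered by their mean in iPHet (blue, iPHet; orange, iPKO; circles, libraries 1 and 3; triangles, libraries 2 and 4; bars, mean of 4). The orange points lie below all blue points for 7 genes and overlap them for Slc7a3, Slc7a6 and Slc6a9, and Slc7a3 splits widely between circles and triangles.

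These calls rest on counting the paired libraries separately. With each pair averaged, 0 of the 9 were called lower and 0 higher by limma, with 4 lower and 0 higher at an unadjusted p under 0.05, and adjusted p of 0.363 to 0.609 for the 6 genes. That fit called 7 genes in all, and 0.016% of those tested lower. With an odd/even term added, 0 were called, 6 were lower at an unadjusted p under 0.05, and the adjusted p of the 6 ran from 0.203 to 0.335, in a fit that again called 0.016% of all genes lower. Restricted to protein-coding genes, that same fit called Slc7a1 (limma adjusted p = 0.0395) and Slc1a4 (0.0497), with 1.05% of genes called lower. With a correlation within pairs estimated from the data, Slc7a1 was called (limma adjusted p = 0.0353) and 0.233% of genes were called lower. Prmt5 itself was not called with pair averages (limma adjusted p = 0.191) or with the odd/even term added (0.0809). It was called in the protein-coding fit with the term (0.00697) and with the estimated correlation (0.00204). With the replicate number as a block, 7 transporters were called lower, Slc7a3 being added, while 16.6% of all genes were called lower, and calls in either direction went from 1973 to 3427. Scaling moved the split of calls over all genes from 1188 lower and 785 higher to 897 and 912 with size factors and to 946 and 936 with quantile normalization. Under those scalings 5 and 6 of the transporters were called lower, against 7.2% and 7.59% of all genes.

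**Figure D2:**
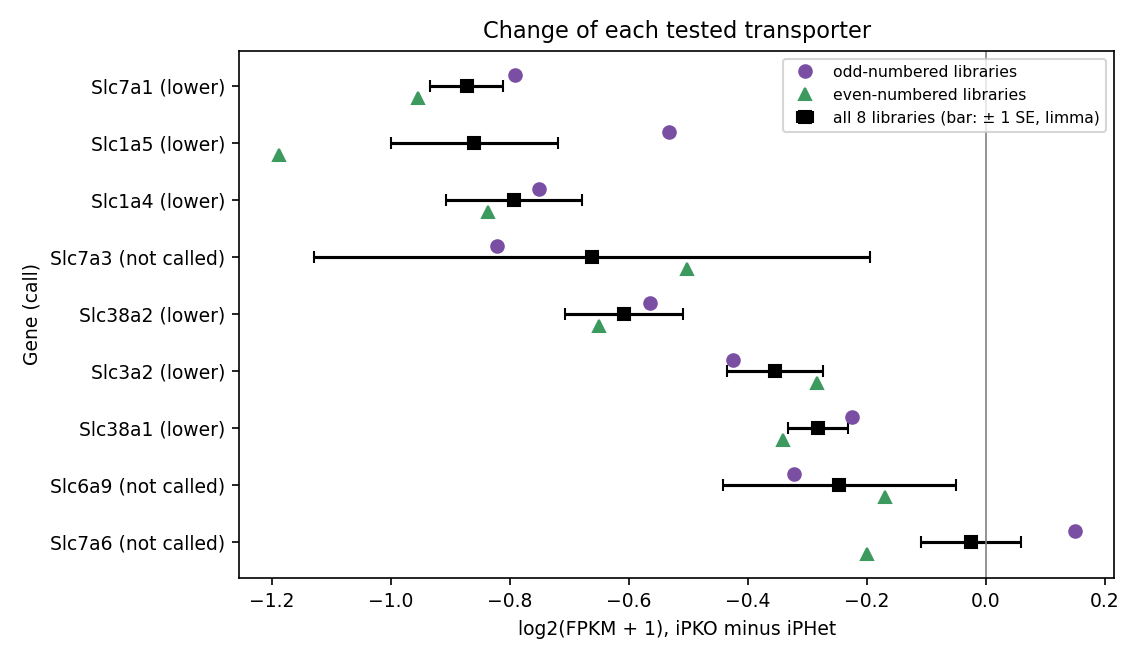
Change of the 9 tested transporters, iPKO minus iPHet on the log2(FPKM + 1) scale (black squares, all 8 libraries with a bar of 1 SE from limma; purple circles, odd-numbered libraries; green triangles, even-numbered libraries). The odd-numbered and even-numbered estimates fall on the same side of 0 for every gene except Slc7a6, and lie farthest apart for Slc1a5, at -0.53 and -1.19.

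The promoters of the transporters were read for a sequence element that the amino acid response is known to use, and for others. RefSeq promoters on GRCm38.p6, from 250 bases before to 50 after a transcript start, were at hand for 7 members: Slc3a2, Slc7a1, Slc7a6, Slc7a11, Slc1a4, Slc38a2 and Slc6a9. The element searched first was TGATGNAA, the composite site bound by ATF4 with a CEBP partner, on both strands. It was found in Slc7a11 and Slc1a4 and in none of the other 5, against 3.97% of 32851 promoters of the same length. Slc7a11 held it in both directions, starting 66 and 47 bases before the start, and Slc1a4 held it across the start itself, from 4 bases before. Sequence outside these promoters was not searched, so an element there would be missed. The windows below, from 96 bases before to 4 bases after the start, show these matches in capitals. The window of Slc7a1, which fell, is added as one with no match in the promoters read.
Slc7a11 (chr3:50443610-50443709, minus strand): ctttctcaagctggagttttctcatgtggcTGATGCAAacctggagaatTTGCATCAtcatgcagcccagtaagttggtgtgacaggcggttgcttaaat
Slc1a4 (chr11:20332710-20332809, minus strand): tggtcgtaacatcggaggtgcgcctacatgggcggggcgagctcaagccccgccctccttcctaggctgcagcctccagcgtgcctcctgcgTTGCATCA
Slc7a1 (chr5:148399901-148400000, minus strand): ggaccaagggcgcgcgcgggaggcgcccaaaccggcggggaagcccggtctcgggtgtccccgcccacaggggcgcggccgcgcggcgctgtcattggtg

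TGACNNNGC, the core of the antioxidant response element, was in promoters of Slc7a1, Slc7a6, Slc38a2 and Slc6a9 and in 12.4% of all promoters. Slc7a1, Slc7a6 and Slc6a9 had several promoters and were counted on a match in any, while the share is per promoter. The E-box CACGTG was in no promoter of the 7 and in 7.15% of all. The Slc7a11 promoter was 44.7% G and C, below the median of 52.7% over all promoters, while that of Slc38a2 was 73.0%. These are matches of letters in a window, and occupancy was not measured.

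Slc3a2, the heavy chain of the heteromeric transporters, was among the most abundant members and fell by a modest amount. The gene (ENSMUSG00000010095, chr19:8706882-8723369 of mm10, minus strand) was at 76.3, 83.9, 78.7 and 82.7 FPKM in iPHet libraries 1 to 4 and at 57.5, 67.1, 57.4 and 69.4 FPKM in iPKO. The highest iPKO library was below the lowest iPHet library. The mean went from 80.4 ± 3.53 FPKM to 62.9 ± 6.34 FPKM (SD, n = 4 each), so 78.2% of the control level was left. On the log2(FPKM + 1) scale the change was -0.35 (SE 0.08, limma adjusted p = 0.0217), with -0.43 among odd-numbered and -0.28 among even-numbered libraries. The call was lost without iPHet library 2, iPHet library 4, iPKO library 1 or iPKO library 3, with limma adjusted p of 0.0554 to 0.0611, and with size factors (0.0701).

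Slc7a11 encodes xCT, the light chain that exchanges glutamate for cystine and so feeds glutathione synthesis. Its transcript was scarce, at 0.362, 0.394, 0.391 and 0.342 FPKM in iPHet and 0.205, 0.177, 0.168 and 0.188 FPKM in iPKO. The 2 genotypes did not overlap, although at this level the authors' own bounds did, with a lowest lower bound of 0.271 FPKM among iPHet libraries and a highest upper bound of 0.315 FPKM among iPKO libraries. That upper bound was of iPKO library 4, and those of iPKO libraries 1 to 3 were 0.258, 0.224 and 0.217 FPKM. The mean of Slc7a11 was 2.02-fold lower in iPKO, at 0.185 ± 0.0160 against 0.372 ± 0.0245 FPKM (SD, n = 4 each), the largest fold between the means of the 10 genes. Because both means were under 1 FPKM, the gene (ENSMUSG00000027737, chr3:50364936-50443613, minus strand) was not tested in the main fit. Without the filter it was called (log2 change -0.21, SE 0.03, limma adjusted p = 0.00436), in a fit that called 5.03% of 21952 genes lower, and the pseudocount of 1 makes this change much smaller than the ratio of the means. Its promoter is the one with TGATGNAA in both directions. In GENCODE a longer model of the gene overlaps antisense and pseudogene entries. These had no values of their own here, and whether their reads entered the value of Slc7a11 is not known.

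Slc7a6, the light chain y+LAT2, which exports cationic amino acids in exchange for neutral ones, was not called. The levels of this gene (ENSMUSG00000031904, chr8:106168875-106198704, plus strand) were 11.0, 11.4, 10.4 and 11.7 FPKM in iPHet and 11.9, 9.71, 12.1 and 10.1 FPKM in iPKO, with overlapping groups. The log2 change was -0.02 (SE 0.08, limma adjusted p = 0.87). Odd-numbered libraries gave 0.15 (adjusted p = 0.0752) and even-numbered libraries -0.20 (0.0438), opposite in sign, and with size factors or quantile normalization the change over all 8 libraries was positive (0.01 and 0.02). Whether the odd and even changes differ was not tested. The ratio of Slc7a6 to Slc3a2 was 0.132 to 0.144 in iPHet and 0.145 to 0.210 in iPKO, without overlap by a narrow margin, and the ratio of Slc7a11 to Slc3a2 was 0.00414 to 0.00496 in iPHet and 0.00264 to 0.00357 in iPKO.

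Another light chain, y+LAT1 encoded by Slc7a7, is named here after its values were seen. It stood at 4.50, 8.88, 4.87 and 8.40 FPKM in iPHet and at 1.79, 4.37, 1.85 and 4.49 FPKM in iPKO. The genotypes were separate by a hair, and within each of them the even-numbered libraries were higher. The log2 change was -0.92 (SE 0.31) with a limma adjusted p of 0.0781. With the replicate block the adjusted p was 0.00356, with pair averages and the odd/even term 0.203, and with an estimated correlation 0.287. The protein-coding fit with the term gave 0.047, a call. Slc7a5, the light chain LAT1, was not analysed here.

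Among the carriers of arginine and lysine, Slc7a1 showed the smallest adjusted p of the 10 genes. Slc7a1 (ENSMUSG00000041313, chr5:148327410-148399904, minus strand), a broadly expressed uniporter of cationic amino acids, was at 34.1, 36.5, 32.0 and 35.1 FPKM in iPHet and at 18.9, 18.9, 18.5 and 17.2 FPKM in iPKO. All 4 knockout libraries sat close together, well under the lowest control. The mean went from 34.4 ± 1.89 to 18.3 ± 0.805 FPKM (SD, n = 4 each), which left 53.3% of the control level. The log2 change was -0.87 (SE 0.06, limma adjusted p = 0.00032), with -0.79 among odd-numbered and -0.95 among even-numbered libraries. It was called without each single library in turn, with limma adjusted p of at most 0.00242.

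Slc7a3 (ENSMUSG00000031297, chrX:101079210-101086020, minus strand), a cationic carrier with a narrower expression pattern, divided the libraries more by their number than by their genotype. It was at 51.3, 113, 48.2 and 111 FPKM in iPHet and at 28.2, 81.6, 27.2 and 76.5 FPKM in iPKO. The even-numbered knockout libraries were above the odd-numbered controls, so the genotypes overlapped. Even-numbered libraries were 2.26-fold above odd-numbered ones in iPHet and 2.85-fold in iPKO. On the log2(FPKM + 1) scale those splits of 1.16 and 1.48 were larger than in 97.4% and 98.1% of all genes tested, where the medians were 0.21 and 0.22. Within each kind of library the knockout was lower, with 49.8 against 27.7 FPKM among odd-numbered (log2 change -0.82) and 112 against 79.0 FPKM among even-numbered libraries (-0.50). Over all 8 libraries the log2 change was -0.66 (SE 0.47, limma adjusted p = 0.376, not called). With the replicate number as a block, the same change had an SE of 0.08 and a limma adjusted p of 0.00826, a call. With pair averages and the odd/even term the adjusted p was 0.216, and with an estimated correlation 0.616. The odd-numbered libraries alone gave a limma adjusted p of 0.0023 and the even-numbered alone 0.00555, in fits where 27.3% and 22.5% of genes were called lower.

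The balance of these cationic carriers varied with the library. The ratio of Slc7a3 to Slc7a1 was 1.50, 3.10, 1.51 and 3.17 in iPHet and 1.50, 4.32, 1.47 and 4.46 in iPKO. In the odd-numbered libraries the ratio was nearly the same in both genotypes, and in the even-numbered ones it was higher in iPKO, a difference that was not tested.

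Both exchangers of the SLC1 family fell. Slc1a5 encodes ASCT2, a main route of glutamine into proliferating cells. The gene (ENSMUSG00000001918, chr7:16781346-16798274, plus strand) was at 68.3, 77.8, 71.2 and 75.8 FPKM in iPHet and at 47.1, 33.9, 48.7 and 32.5 FPKM in iPKO. No library of one genotype reached the range of the other, and the even-numbered libraries were the lowest of the knockout. The mean went from 73.3 ± 4.34 to 40.5 ± 8.54 FPKM (mean ± SD, n = 4 each), 1.81-fold lower, with a log2 change of -0.86 (SE 0.14, limma adjusted p = 0.0066). The fold was 1.46 among odd-numbered and 2.32 among even-numbered libraries, and this difference was not tested.

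Slc1a4 encodes ASCT1, which exchanges alanine, serine, cysteine and threonine. The gene (ENSMUSG00000020142, chr11:20302180-20332713, minus strand) was at 8.34, 10.8, 8.13 and 10.2 FPKM in iPHet and at 4.20, 5.38, 4.81 and 5.50 FPKM in iPKO. Again every knockout library was below every control, and the promoter of this gene carries TGATGNAA across its start. The mean went from 9.37 ± 1.34 to 4.97 ± 0.599 FPKM (mean ± SD, n = 4 each), 1.89-fold lower. Its log2 change was -0.79 (SE 0.11, limma adjusted p = 0.00408), nearly equal among odd-numbered (-0.75) and even-numbered libraries (-0.84). The ratio of Slc1a5 to Slc1a4 was 8.18, 7.18, 8.75 and 7.45 in iPHet and 11.2, 6.30, 10.1 and 5.91 in iPKO. It was higher in the knockout in the odd-numbered libraries and lower in the even-numbered ones, so the genotypes overlapped.

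The sodium-coupled neutral amino acid transporters Slc38a1 (SNAT1) and Slc38a2 (SNAT2), which bring in glutamine, alanine and other small neutral amino acids, lie side by side on chromosome 15. Slc38a2 (ENSMUSG00000022462, chr15:96687394-96699698, minus strand) was at 69.5, 82.9, 68.6 and 86.7 FPKM in iPHet and at 46.2, 53.3, 46.5 and 54.1 FPKM in iPKO. Its genotypes were well apart, although each value lay below the authors' own lower bound, and in both of them the even-numbered libraries were higher. The mean went from 76.9 ± 9.26 to 50.0 ± 4.24 FPKM (mean ± SD, n = 4 each), 1.54-fold lower, with a log2 change of -0.61 (SE 0.10, limma adjusted p = 0.0067). Slc38a1 (ENSMUSG00000023169, chr15:96571418-96642913, minus strand) was at 33.8, 33.8, 32.9 and 34.1 FPKM in iPHet and at 28.6, 27.0, 28.3 and 26.2 FPKM in iPKO. This was a small fall over very little spread between the controls. The mean went from 33.7 ± 0.518 to 27.5 ± 1.09 FPKM (mean ± SD, n = 4 each), 1.22-fold lower, with a log2 change of -0.28 (SE 0.05, limma adjusted p = 0.0097). The ratio of Slc38a2 to Slc38a1 was 2.05 to 2.54 in iPHet and 1.62 to 2.06 in iPKO, and the ranges touched. In the odd-numbered libraries it was 2.05 and 2.08 in iPHet against 1.62 and 1.64 in iPKO. In the even-numbered ones it was 2.45 and 2.54 against 1.97 and 2.06, and these differences were not tested.

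The next family member along the chromosome moved the other way. Slc38a4 (SNAT4), an imprinted gene in the mouse that also takes up neutral amino acids, was at 26.4, 17.3, 25.7 and 17.0 FPKM in iPHet and at 55.5, 32.8, 55.2 and 35.9 FPKM in iPKO. Every knockout library was above every control, and in both genotypes the odd-numbered libraries were higher. The rise was 2.08-fold (log2 change 1.01, SE 0.23, limma adjusted p = 0.0207), and the call was lost without iPHet library 2, iPHet library 4, iPKO library 1 or iPKO library 3, with adjusted p up to 0.0577. It was lost as well with pair averages (0.496), with the odd/even term added (0.203) and with an estimated correlation (0.129), and kept in the protein-coding fit of that kind with the term (0.0328). A gap of 44.5 kb separates Slc38a1 from Slc38a2, and one of 295 kb separates Slc38a2 from Slc38a4. Reads of the 3 genes thus come from loci that do not overlap.

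**Figure D3:**
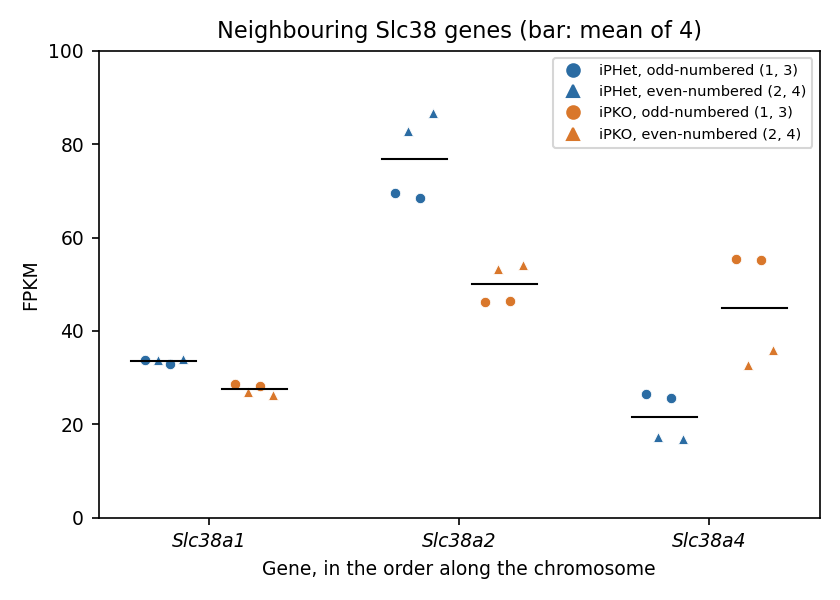
Expression of the neighbouring genes Slc38a1, Slc38a2 and Slc38a4 in each library, in FPKM on a linear axis (blue, iPHet; orange, iPKO; circles, libraries 1 and 3; triangles, libraries 2 and 4; bars, mean of 4). Slc38a1 and Slc38a2 are lower in all 4 iPKO libraries, and Slc38a4 is higher in all 4, with means of 21.6 and 44.8 FPKM.

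Slc6a9 encodes GlyT1, a sodium-coupled carrier of glycine. The gene (ENSMUSG00000028542, chr4:117834506-117875198, plus strand) was weakly expressed, at 2.17, 1.78, 2.87 and 1.36 FPKM in iPHet and at 1.61, 0.890, 2.01 and 1.74 FPKM in iPKO. The genotypes overlapped. The log2 change was -0.25 (SE 0.20, limma adjusted p = 0.436). On the other strand the gene overlaps B4galt2, with means of 3.68 (iPHet) and 2.40 FPKM (iPKO), and Ccdc24, with 1.67 and 1.22 FPKM. Whether counting used the strand is not given, so reads of Slc6a9 and of these neighbours cannot be told apart.

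Set side by side, the control cells had their highest levels in Slc7a3, Slc3a2, Slc38a2 and Slc1a5, with means of 73.3 to 81.0 FPKM whose ranges overlapped from each to the next. Slc7a1 and Slc38a1 followed, then Slc7a6 and Slc1a4, again with overlap within each couple, and Slc6a9 and Slc7a11 came last, each apart from its neighbour. In the knockout the leading 4 genes were unchanged as a set. The mean of Slc3a2 was there above that of Slc7a3, with overlapping ranges. In both genotypes, however, Slc3a2 was above Slc7a3 in the odd-numbered libraries and below it in the even-numbered ones. Slc38a1 stood above Slc7a1 in the knockout, and the ranges were apart at every step from Slc1a5 downwards.

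The genes whose pattern over the 8 libraries was most like that of Slc3a2 were found among 8572 genes averaging 5 FPKM or more. They were Nars (Pearson r = 0.996) and Gars (0.994), which encode the aminoacyl-tRNA synthetases of asparagine and glycine, Trh (0.995), the precursor of thyrotropin-releasing hormone, Mrpl49 (0.994), a mitochondrial ribosomal protein, and Mthfd1l (0.994), an enzyme of mitochondrial folate metabolism. These are descriptions over 8 points that share libraries, genotype and the odd and even split. Nars went from 94.1 ± 6.64 to 63.2 ± 9.59 FPKM (SD, n = 4 each).

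Of 29 other plasma membrane amino acid transporters with a row, 9 were expressed enough to be tested, and 1 fell and 1 rose, against 9.53% and 6.3% of all genes, and their median log2 change was -0.15. Slc6a6, the taurine transporter, fell from 78.0 ± 1.65 to 62.3 ± 1.44 FPKM (mean ± SD, n = 4 each; limma adjusted p = 0.00475). Slc38a4 was the gene that rose. With the replicate block 3 were called lower and 1 higher, and with pair averages or an estimated correlation 0 were called by limma, with 0 to 3 lower and 1 higher at an unadjusted p under 0.05. The protein-coding fit with the odd/even term called 1 lower, Slc7a7, and 1 higher, Slc38a4. Slc6a19 and Slc7a13 were listed at 0 in all libraries. Of 17 transporters of mitochondria and lysosomes, 12 were tested, 1 fell and 0 rose, against 9.53% and 6.3% of all genes, with a median of -0.03. Sfxn1, a mitochondrial serine carrier, was the one that fell, from 22.8 ± 1.57 to 18.3 ± 1.36 FPKM (mean ± SD, n = 4 each; limma adjusted p = 0.0307). That call was lost without any of 6 single libraries (iPHet 2, 3 and 4 and iPKO 1, 2 and 3, adjusted p up to 0.0787) and under either rescaling. With the block 3 of the list were called lower, against 16.6% of all genes. With pair averages, with or without the odd/even term, and with an estimated correlation, limma called 0 of the list. In those fits 0 to 2 were lower and 0 higher at an unadjusted p under 0.05.

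Of ATF4 and its amino acid response genes all 28 were tested, 15 fell, 1 rose and 12 were not called, with a median log2 change of -0.50. Over all genes 9.53% fell and 6.3% rose. Atf4 was at 285, 282, 278 and 283 FPKM in iPHet and at 146, 218, 147 and 216 FPKM in iPKO. Its control libraries were tight, and its odd-numbered knockout libraries were lower than the even-numbered ones, the opposite of the order seen for Slc1a5. The log2 change was -0.66 (SE 0.15, limma adjusted p = 0.021), and the call was lost without iPHet library 1, 2 or 4 (adjusted p up to 0.0554). Pycr1 and Aldh18a1, enzymes of proline synthesis, went from 8.67 to 2.49 and from 30.8 to 13.3 FPKM. Shmt2, which makes glycine from serine in mitochondria, went from 72.9 to 36.6 FPKM, and Atf5, a transcription factor, from 9.70 to 4.28 FPKM. The adjusted p of these 4 lay between 0.00148 and 0.00444. Among the 12 not called, Asns went from 403 to 357 FPKM (limma adjusted p = 0.578). Ddit3 went from 5.33 to 5.39 FPKM (0.981) and Sesn2 from 96.8 to 95.3 FPKM (0.854). Others of the 12 leaned lower, such as Cebpb, from 2.76 to 1.70 FPKM (0.071), and Eif4ebp1, from 90.6 to 64.2 FPKM (0.0748). Eif2ak4, which encodes the uncharged tRNA sensor GCN2, was the gene that rose, from 12.7 ± 1.44 to 16.1 ± 0.875 FPKM (mean ± SD, n = 4 each; limma adjusted p = 0.0369), a call kept in only 1 of the 8 fits that leave out a library. Called genes of this list numbered 8 without iPHet library 4, 10 without iPHet library 2 and 10 without iPKO library 1. With pair averages, with or without the odd/even term, and with an estimated correlation, 0 were called by limma, with 13 to 15 lower and 0 to 1 higher at an unadjusted p under 0.05. The protein-coding fit with the odd/even term called 8 lower.

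Genes of the mTORC1 amino acid sensing pathway went both ways. Of 28 tested, 4 fell and 4 rose, against 9.53% and 6.3% of all genes, with a median of -0.06. Nprl3 and Nprl2, subunits of the GATOR1 complex that holds mTORC1 back when amino acids are scarce, were among the rises, Nprl3 from 9.67 to 17.3 FPKM (limma adjusted p = 0.00517) and Nprl2 from 8.47 to 11.7 FPKM (0.0155). Tsc1, a further inhibitor of the pathway, rose from 13.4 to 19.4 FPKM (0.00199), and Wdr59, a GATOR2 subunit, from 6.59 to 9.53 FPKM (0.00237). These 4 were called without each single library in turn, but not with pair averages (adjusted p of 0.405 to 0.545), with the odd/even term added (0.203 to 0.266) or with an estimated correlation (0.171 to 0.348). In those 3 fits limma called 0 of the list, with 0 to 3 lower and 4 higher at an unadjusted p under 0.05. The protein-coding fit with the term called Nprl3 (0.047). The 4 falls, in Lamtor3, Gatsl3, Wdr24 and Sec13, had limma adjusted p of 0.0261 to 0.0486 and were each lost without at least 4 of the single libraries, with adjusted p up to 0.112. Lamtor3 (0.0818) and Sec13 (0.0501) were also lost with the replicate block. With size factors or quantile normalization the 4 rises were called and the 4 falls were not.

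Genes of cystine use and glutathione synthesis, the pathway fed by Slc7a11, had few calls. Of 15 tested, 1 fell and 0 rose, against 9.53% and 6.3% of all genes, with a median of -0.04. With the block 2 were lower, against 16.6% of all genes, and 1 was higher. With pair averages, with or without the odd/even term, and with an estimated correlation, limma called 0. In those fits 0 to 1 were lower and 0 to 1 higher at an unadjusted p under 0.05. Gpx1, a glutathione peroxidase, went from 804 ± 81.7 to 615 ± 65.9 FPKM (mean ± SD, n = 4 each; limma adjusted p = 0.0473), a call lost without any of 6 single libraries (iPHet 1, 3 and 4 and iPKO 1, 2 and 4, adjusted p up to 0.111) and under either rescaling.

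**Figure D4:**
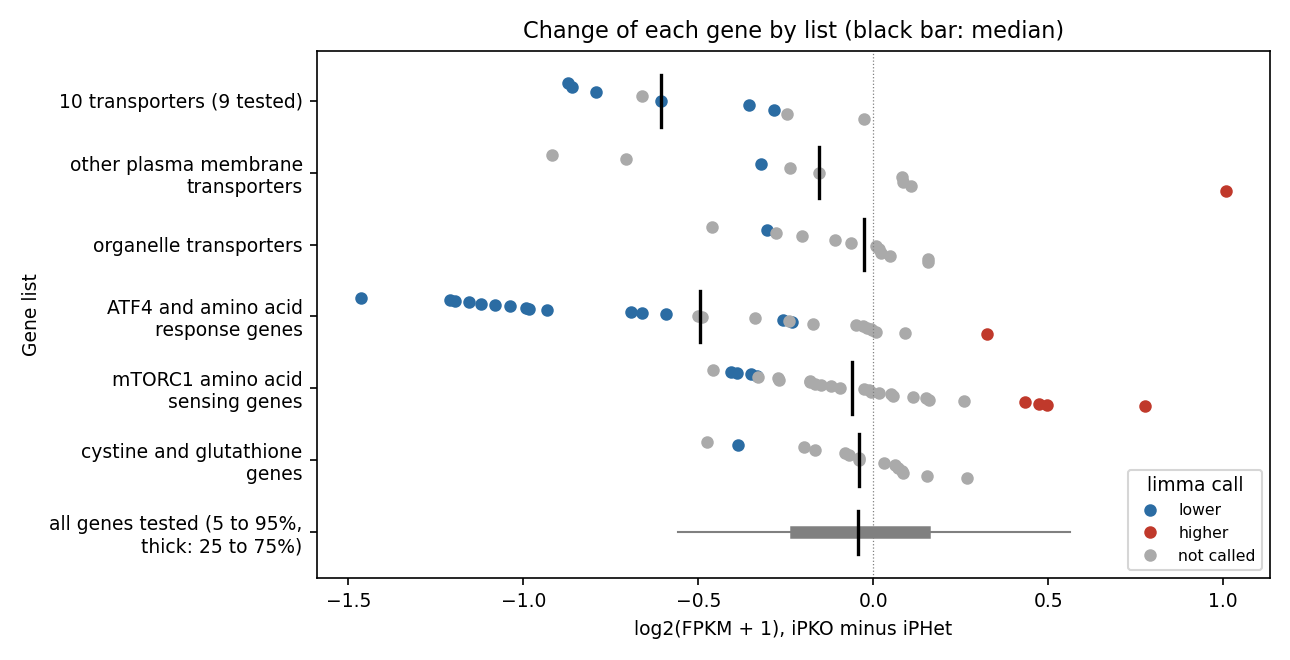
Change of each tested gene in 6 gene lists, iPKO minus iPHet on the log2(FPKM + 1) scale (blue, called lower; red, called higher; grey, not called; black bar, median of the list), above the spread of all genes tested. The medians of the 9 tested transporters (-0.61) and of the ATF4 list (-0.50) lie to the left of that of all genes (-0.04), and the mTORC1 list has calls on both sides.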

How the data were processed

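RNA was sequenced in 4 iPHet and 4 iPKO libraries. Each file held the authors' FPKM per gene, with a lower and an upper bound and an estimate status, per the file headers. The submitters' processing notes name Trimmomatic and the build mm10. Not given in the sources used here were the aligner, the FPKM program, strand use and versions. Genes that overlap or share sequence can exchange reads in such values.

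Rows were joined by identifier, and 19 identifiers at several loci were summed. Gene types came from GENCODE vM21, which held 96.2% of identifiers. The 12462 genes averaging 1 FPKM or more in a genotype were tested as log2(FPKM + 1) with limma 3.58.1 (intensity trend, R 4.3.3) over all 8 libraries with no covariate, and called at a Benjamini-Hochberg adjusted p under 0.05. The method was tested on simulated data in which all libraries were independent, so that test did not cover the likeness within pairs. "Rose" and "fell" refer to calls, and folds are ratios of mean FPKM. Tables and figures were made in Python 3.11.15 with pandas 2.3.3, numpy 2.4.6 and matplotlib 3.10.9. The 22 alternatives changed the pseudocount (0.1), filter (none, 5 FPKM), scaling, block, libraries, pair treatment, gene type or trend.

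Members and lists (other plasma membrane and organelle transporters, ATF4 response, mTORC1 sensing, cystine and glutathione, and markers of stem cells, feeders, primitive endoderm, trophoblast and neuroectoderm) were chosen with earlier results of these data known. Named genes were all members, Prmt5, Atf4, up to 4 called genes per list with the smallest p (all where 5 or fewer were called in a direction), and the 5 genes most like Slc3a2. The uncalled genes of the ATF4 list were named after their values were seen. Slc7a5 was not analysed here.

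Deviations from the group means of same-numbered iPHet and iPKO libraries correlated at 0.104, 0.162, 0.204 and 0.107, all above 0.1, so the numbers were taken to pair the samples. For different numbers of the same parity the values were 0.077 to 0.124, so the numbers are not clearly apart from the odd and even split. No label states this pairing, which rests on the values alone.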

Additional observations from a re-analysis of the deposited data

How the results depend on the processing

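The 1973 calls over all genes became 3427 with the replicate block, 1264 to 1416 without a single library, 7 with pair averages, 6 with an odd/even term as well, 52 with an estimated correlation within pairs (0.84), 198 in protein-coding pair averages with that term, 5700 in the odd-numbered libraries alone and 4932 in the even-numbered alone. The lowest count, 1264, came without iPHet library 4, and 1309 were called without iPKO library 1. In place of 6 transporters called lower there were 0 with pair averages, 0 with the odd/even term as well, 1 (Slc7a1) with the estimated correlation and 2 in the protein-coding pair averages, against 5 to 6 without a single library and 7, with Slc7a3, with the replicate block. The block changed no other call among the 9 tested. The pair-averaged fits hold 4 values in place of 8. The small change of Slc7a6 turned positive with quantile normalization (0.017), with size factors (0.0084) and in some of the fits without a single library (-0.071 to 0.025, the highest without iPKO library 2 and positive also without iPKO library 4), and in the odd-numbered libraries (0.149). None was called higher in the alternatives run, which numbered 22 for 8 of the genes, 21 for Slc6a9 and 1 for Slc7a11. Without depth, counting error at the level of Slc7a11 cannot be given apart from the authors' bounds.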
